A study of Mus musculus with 8 samples.

Results

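The genes described here are 10 immediate early genes of the mouse, namely Fos, Fosb, Jun, Junb, Jund, Egr1, Klf4, Klf6, Ier2 and Dusp1. They were chosen by name, with earlier results of these data known, from the 23366 genes of the deposited table, and all 10 were found there. Each was measured in cells that the labels call beta cells, the source of insulin in the body, sorted from the pancreas of NOD mice aged 8 to 10 weeks. The markers given further on go against that label in the bottom libraries, which are therefore called by the name of their population. NOD is an inbred strain that develops autoimmune diabetes, and all 8 libraries came from it, with no treatment named in the labels. The labels name a top and a bottom population, each with 4 libraries made from about 1000 cells, of which 2 lie in batch 1 and 2 in batch 2. The labels name the batch of each library, and the titles within a batch end in the same number. What a batch or that number marks is not stated. What set the gate between the populations, and whether each library came from its own animals, is not given in the sources used here, so p-values measure the spread between libraries, which may be technical.

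Immediate early genes are switched on within minutes of a signal, from transcription factors that are already present in the cell and without new protein synthesis. Kinases of the MAPK family act on serum response factor with its ETS-domain partners, calcium and cyclic AMP act through CREB, and the early gene products then set a second wave of transcription. Fos and Jun proteins pair through a leucine zipper to form AP-1, EGR1 and the Krüppel-like factors bind DNA through zinc fingers, and the phosphatase DUSP1 switches the MAPK signal off again. In beta cells these genes are known to respond to glucose, depolarisation and cyclic AMP, and in many tissues they also rise when the tissue is taken apart into single cells.

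Promoters were found for 8 of the 10 genes in a RefSeq table on GRCm38.p6. Of Egr1 and Ier2 only the levels are given. The 4 stretches below are the 250 bases before the transcription start, read 5′ to 3′ on the strand of the gene. They are those of Fos, which had the highest level per length, of Klf6 and Fosb, whose adjusted p-values for the difference between populations were the smallest, and of Dusp1, whose difference was the smallest. Capitals mark every match, on either strand, to a CArG box (the binding site of serum response factor), a cyclic AMP response element (CRE, TGACGTCA), an AP-1 site (TGAGTCA), an SP1 box (GGGCGG), an EGR site (GCGGGGGCG) or a TATA box (TATAAA). The Fos stretch lies at chr12:85473640-85473889 (plus strand), Fosb at chr7:19310046-19310295 (minus strand), Klf6 at chr13:5861239-5861488 (plus strand) and Dusp1 at chr17:26508473-26508722 (minus strand).
Fos: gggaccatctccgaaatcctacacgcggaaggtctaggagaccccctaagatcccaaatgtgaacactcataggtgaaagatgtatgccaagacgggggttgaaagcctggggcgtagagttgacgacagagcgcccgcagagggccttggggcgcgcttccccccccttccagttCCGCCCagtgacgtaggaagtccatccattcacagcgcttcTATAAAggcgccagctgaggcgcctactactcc
Fosb: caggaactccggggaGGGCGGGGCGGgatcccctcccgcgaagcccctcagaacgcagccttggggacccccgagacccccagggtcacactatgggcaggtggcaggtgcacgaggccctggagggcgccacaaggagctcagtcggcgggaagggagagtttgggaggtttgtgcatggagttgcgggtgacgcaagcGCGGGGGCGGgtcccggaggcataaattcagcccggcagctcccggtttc
Klf6: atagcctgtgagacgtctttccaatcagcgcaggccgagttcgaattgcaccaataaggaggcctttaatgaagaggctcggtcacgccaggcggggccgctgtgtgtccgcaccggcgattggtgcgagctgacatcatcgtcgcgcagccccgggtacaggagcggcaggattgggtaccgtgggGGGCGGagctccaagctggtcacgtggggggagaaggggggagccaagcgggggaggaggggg
Dusp1: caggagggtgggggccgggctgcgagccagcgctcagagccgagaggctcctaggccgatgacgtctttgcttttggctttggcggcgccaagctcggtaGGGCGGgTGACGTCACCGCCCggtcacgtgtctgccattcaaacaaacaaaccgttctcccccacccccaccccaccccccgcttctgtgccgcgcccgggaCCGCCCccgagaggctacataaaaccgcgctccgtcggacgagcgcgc

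The SP1 box was the most common of these letters. It occurred in 6 of the 8 promoters, while 32.7% of the 32851 promoters in the table held it in a window of the same length. Fos carried 1 of them and, 33 to 28 bases before the start, a TATA box, which 12.4% of all promoters held and none of the other 7 did. Fosb and Klf4 each carried an EGR site (2.57% of all promoters), and in both it overlapped an SP1 box. Dusp1 held the only exact match to the CRE among the 8, 143 to 136 bases before the start and between a pair of SP1 boxes, against 1.55% of all promoters. No CArG box and no AP-1 site was matched in these windows, beside 1.47% and 4.46% of all promoters. Sites farther from the start, sites with other letters, and the promoters of Egr1 and Ier2 were not searched. Such matches describe the letters in the window and were not tied to the levels that follow.

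The libraries held 6657640 to 11262400 estimated counts each. Checked against the label, the 10 beta cell markers summed to 344219 to 505831 CPM in top and to 38809 to 81394 CPM in bottom. All 10 had negative log2 fold changes (median -2.14), and edgeR called 3 of them lower (0.162% of all genes), with 8 lower at an unadjusted p under 0.05 (4.63% of all genes). Insulin transcripts (Ins1 and Ins2) made up 26.6% to 40.1% of the counts in top libraries and 2.75% to 7.16% in bottom libraries. Summed delta cell markers lay at 2649 to 5296 CPM in top and 33403 to 57801 CPM in bottom, and summed PP cell markers at 1196 to 2356 and 11342 to 91991 CPM. In bottom 1 the PP cell (77084 CPM), delta cell (52685 CPM) and alpha cell markers (51140 CPM) each exceeded the beta cell markers (38809 CPM). In bottom 2 the alpha cell markers (142098 CPM) and the PP cell markers (91991 CPM) exceeded the beta cell markers (81394 CPM). The delta cell markers of bottom 2 did not. In bottom 3 and bottom 4 the beta cell markers stood above each of these lists. Bottom 1 and bottom 2 also held 32133 and 7332 CPM of intestinal epithelial transcripts, against 14.7 and 41.1 CPM in the other bottom libraries and 53.2 to 2000 CPM in top. CPM is the count of a gene relative to the depth of its library, here after TMM scaling, which evens out differences in composition between libraries. In bulk RNA of this kind, more cells that express a gene and more RNA per cell cannot be told apart.

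All 10 genes had a higher mean in bottom, and none of the 10 passed the test across all genes. The fitted folds ran from 1.16 for Dusp1 to 2.59 for Klf6, with a median log2 fold change of 0.72 beside a median of 0.00 over the 11721 genes tested, of which 50.1% were positive. The edgeR quasi-likelihood test, with batch as a covariate and Benjamini-Hochberg adjustment over all genes tested, called 0 of the 10 at an adjusted p under 0.05, where 0.282% of all genes were called higher in bottom (33 higher and 19 lower in all, and 55 and 16 when scaled by library totals). At an unadjusted p under 0.05 the same test held 6 of the 10 (Fos, Fosb, Jun, Egr1, Klf6 and Ier2), against 5.62% of all genes in that direction. DESeq2 on the same counts called 4 of the 10 higher (Fos, Fosb, Egr1 and Klf6; 3.14% of all genes), and limma-trend called 2 (Fosb and Klf6; 0.665% of all genes). The differences are therefore given below with their errors and with the adjusted p of each test, and none is called a rise on the edgeR result.

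**Figure D1:**
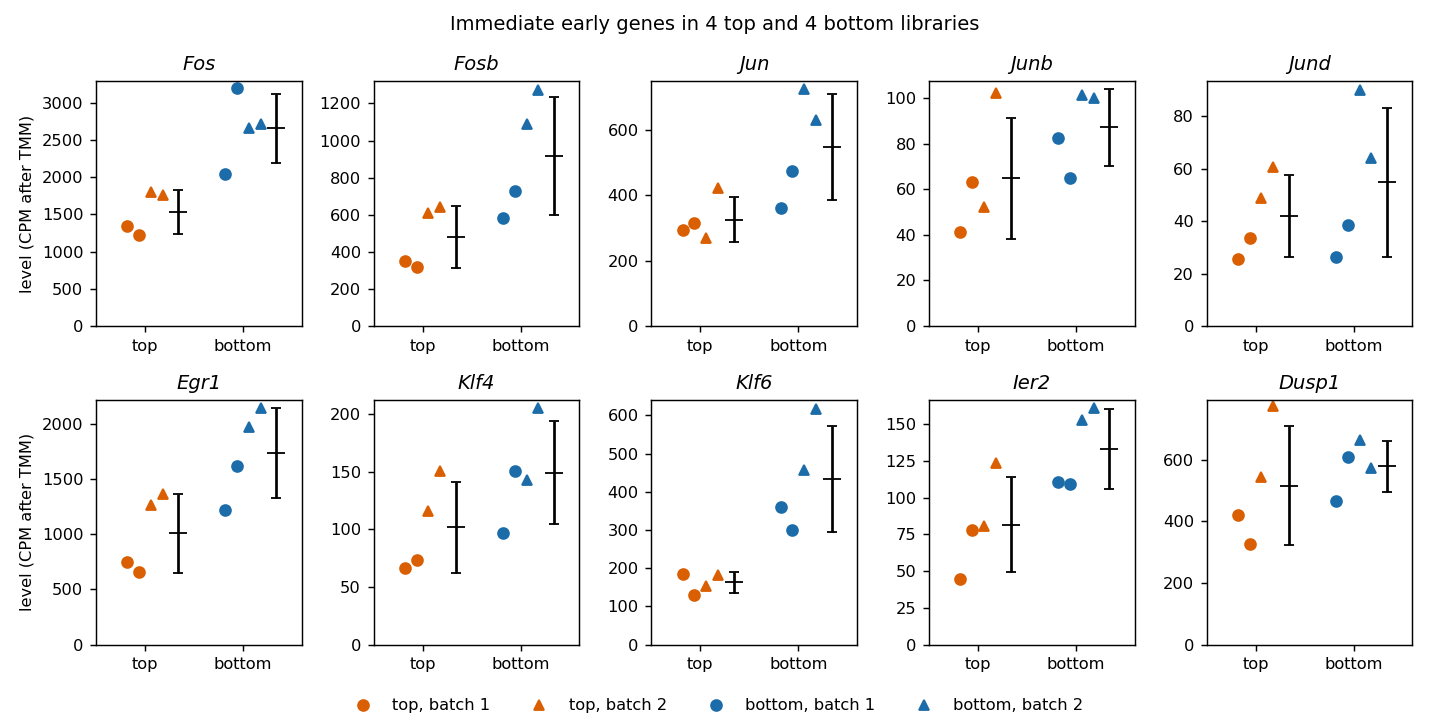
Level of each gene in CPM after TMM scaling (vertical axes, starting at 0) in the top (orange) and bottom (blue) libraries; circles are batch 1, triangles batch 2, and the black bar is the mean ± SD of 4 libraries. The populations do not overlap for Fos, where the lowest bottom library stands at 2047 CPM and the highest top library at 1805, and for Klf6 (299 and 185); the other 8 genes overlap.

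Fos encodes the founding AP-1 subunit, a basic leucine zipper protein that binds DNA only with a partner such as a Jun protein. Its level was 1343, 1222, 1805 and 1754 CPM in top 1 to top 4 and 2047, 3191, 2657 and 2714 CPM in bottom 1 to bottom 4. Every bottom library lay above every top library. The means were 1531 ± 292 CPM in top and 2652 ± 469 CPM in bottom (SD, n = 4), a log2 fold change of 0.81 (SE 0.21, adjusted p = 0.173 in edgeR). DESeq2 gave an adjusted p of 0.0324 and limma-trend one of 0.0724.

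Fosb, a close relative of Fos whose spliced form ΔFosB is long-lived, stood at 352, 317, 607 and 641 CPM in top and at 582, 728, 1087 and 1273 CPM in bottom. Across batches the populations overlapped, since bottom 1 lay below top 3 and top 4. Within each batch both bottom libraries lay above both top libraries. The log2 fold change was 0.94 (SE 0.20, n = 4, adjusted p = 0.0893 in edgeR), and the adjusted p was 0.00153 in DESeq2 and 0.0310 in limma-trend.

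The Jun proteins are the partners that complete AP-1, and they also pair with one another. Jun, the member activated by the kinase JNK, stood at 295, 314, 268 and 423 CPM in top and at 359, 473, 726 and 629 CPM in bottom. Top 4 overlapped with bottom 1, and within each batch the populations were apart. The log2 fold change of Jun was 0.71 (SE 0.25, n = 4, adjusted p = 0.336 in edgeR). Junb, which can restrain transactivation by JUN, stood at 41.4, 63.4, 52.3 and 102 CPM in top and at 82.6, 65.1, 101 and 99.97 CPM in bottom. The highest library for Junb was top 4, and its log2 fold change was 0.44 (SE 0.33, n = 4, adjusted p = 0.743 in edgeR). Jund, the most constitutive of the family in many tissues, stood at 25.5, 33.5, 48.7 and 60.5 CPM in top and at 26.4, 38.4, 90.2 and 63.9 CPM in bottom. For Jund the libraries followed the batch more than the population, with 29.5 and 32.4 CPM as batch 1 means in top and bottom and 54.6 and 77.1 CPM as batch 2 means. Its log2 fold change was 0.32 (SE 0.35, n = 4, adjusted p = 0.853 in edgeR).

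Egr1, a zinc finger factor and a standard readout of MAPK signalling, stood at 748, 654, 1263 and 1360 CPM in top and at 1215, 1621, 1967 and 2140 CPM in bottom. As for Fosb, bottom 1 lay below the batch 2 top libraries, and within each batch the populations were apart. The means were 1006 ± 357 CPM and 1736 ± 409 CPM (SD, n = 4), with a log2 fold change of 0.83 (SE 0.20, adjusted p = 0.139 in edgeR). The adjusted p was 0.0155 in DESeq2 and 0.0544 in limma-trend.

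Klf6, a Krüppel-like factor known as a tumour suppressor and injury response gene, had the largest difference of the 10. It stood at 185, 129, 154 and 183 CPM in top and at 361, 299, 456 and 617 CPM in bottom. No bottom library came near the top range. The means were 162 ± 26.5 CPM and 433 ± 138 CPM (SD, n = 4), a fold of 2.59 (log2 fold change 1.37, SE 0.26, adjusted p = 0.0680 in edgeR). DESeq2 gave an adjusted p of 0.000181 and limma-trend one of 0.0226. Klf4, the pluripotency factor that also marks differentiating epithelium, stood at 66.7, 73.7, 116 and 151 CPM in top and at 97.2, 151, 143 and 206 CPM in bottom. Its populations overlapped, with top 4 above bottom 1 and bottom 3 (log2 fold change 0.61, SE 0.29, n = 4, adjusted p = 0.522 in edgeR). Klf4 is known in intestinal epithelium, and the part of the intestinal transcripts of bottom 1 and bottom 2 in its level was not tested.

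Ier2, a small nuclear protein of the early response, stood at 44.5, 77.7, 80.4 and 124 CPM in top and at 111, 109, 153 and 161 CPM in bottom. Only top 4 reached the bottom range, and within each batch the populations were apart (log2 fold change 0.73, SE 0.30, n = 4, adjusted p = 0.419 in edgeR). Dusp1, the phosphatase that removes the activating phosphates of MAP kinases, stood at 420, 325, 543 and 772 CPM in top and at 465, 608, 664 and 573 CPM in bottom. Its highest library was top 4. The means of Dusp1 were 515 ± 193 CPM and 578 ± 83.7 CPM (SD, n = 4), with a log2 fold change of 0.22 (SE 0.25, adjusted p = 0.856 in edgeR). The sign turned in batch 2 alone, at -0.08, while batch 1 alone gave 0.50.

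**Figure D2:**
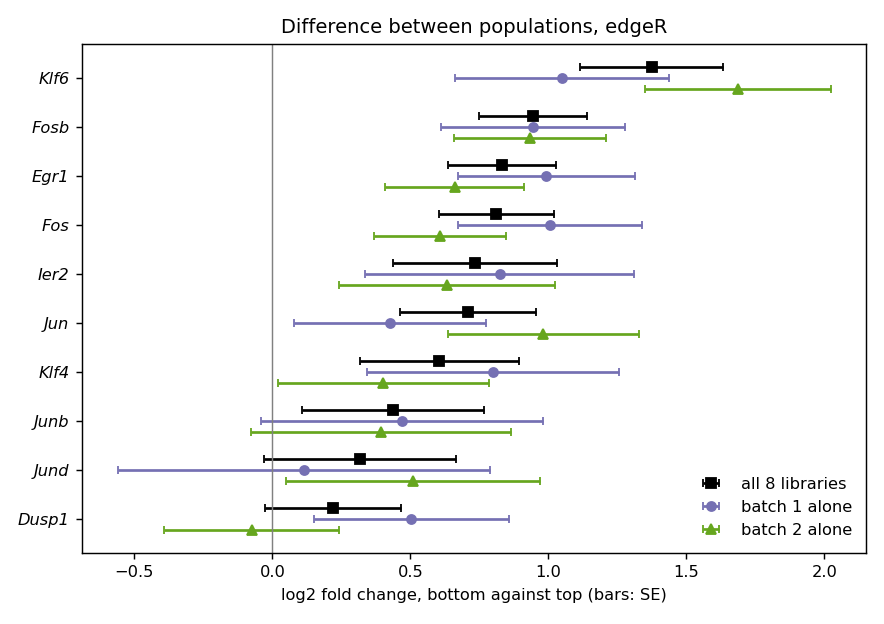
Fitted log2 fold change of bottom against top (horizontal axis, bars are SE) for each gene over all 8 libraries and within each batch of 2 against 2 libraries. Klf6 is highest at 1.37, and Dusp1 is the one gene with a value below 0, -0.08 in batch 2.

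Batch 1 alone gave positive values for all 10 genes and batch 2 alone for 9 of 10. The median log2 fold change of all tested genes was 0.04 in batch 1 alone and 0.05 in batch 2 alone. No gene of the 10 was called in either batch, and only 2 of all tested genes were called in each. Klf6 had log2 fold changes of 1.05 (SE 0.39) in batch 1 and 1.69 (SE 0.34) in batch 2, Fosb had 0.95 (SE 0.33) and 0.93 (SE 0.28), and Fos had 1.01 (SE 0.33) and 0.61 (SE 0.24). In 6 of the 10 genes (Fos, Fosb, Jun, Egr1, Klf6 and Ier2) both bottom libraries lay above both top libraries within each batch, as was so for 5.79% of all tested genes. Over all 8 libraries the populations were apart for 2 of the 10, Fos and Klf6, beside 3.31% of all genes. The interaction of population and batch gave no adjusted p in edgeR below 0.860 and an unadjusted p under 0.05 for 0 of the 10 genes, against 7.55% of all genes in either direction.

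The batches differed too. All 10 genes had higher fitted levels in batch 2, a direction whose share over all genes was not counted. For 4 of the 10 (Fosb, Jund, Egr1 and Klf4) the unadjusted p of the batch term in edgeR was under 0.05, a share that was 3.85% over all genes. None passed after adjustment (smallest adjusted p = 0.233 in edgeR, for Fosb). Fosb differed between batches by 0.87 on the log2 scale (SE 0.19), close in size to its difference between populations. Jund differed by 1.07 (SE 0.35) and Egr1 by 0.72 (SE 0.20), whereas Fos differed by 0.25 (SE 0.21). In Klf6 the batch difference of 0.40 (SE 0.26) was below the population difference of 1.37. This batch comparison was added after the values were seen.

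**Figure D3:**
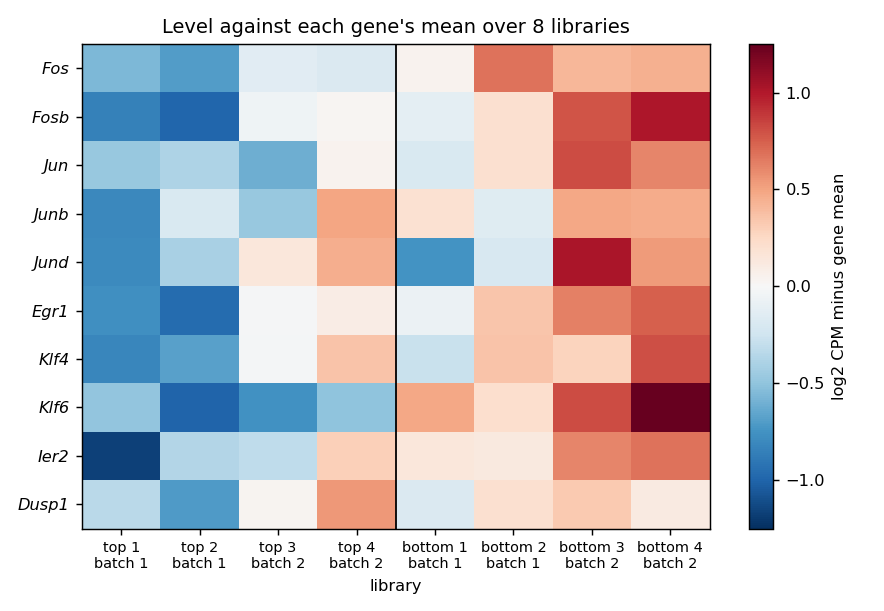
Log2 CPM of each gene minus its own mean over the 8 libraries (colour scale) in each library (columns, with population and batch). Top 1 and top 2 are low in all 10 genes, bottom 3 and bottom 4 are high in all 10, and top 4 is above the mean in 8.

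The ends of the order were shared by most genes, while the middle was not. Top 4 ranked from 1 (Junb, Dusp1) to 6 (Fos, Klf6) and bottom 1 from 3 (Klf6) to 7 (Jund), where 1 is the highest of the 8 libraries. Top 1 was the lowest of the 8 libraries for 4 genes and top 2 for 5. Bottom 4 was the highest for 5 genes, bottom 3 for 2, top 4 for 2 (Junb and Dusp1) and bottom 2 for 1 (Fos). Bottom 3 and bottom 4 were among the 4 highest libraries for all 10 genes, top 4 for 8 and bottom 1 for 4. Summed over the 10 genes the level was 3522, 3208, 4937 and 5571 CPM in top and 5347, 7284, 8044 and 8476 CPM in bottom. As a share of all counts, before any scaling, the genes made up 0.313%, 0.273%, 0.430% and 0.527% in top and 0.524%, 0.692%, 1.05% and 1.04% in bottom. On both measures top 4 reached above bottom 1 and no other top library did.

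Ratios of counts within a library do not depend on how libraries are scaled. The log2 ratio of Dusp1 to Fos was -1.68, -1.91, -1.73 and -1.18 in top and -2.14, -2.39, -2.00 and -2.24 in bottom, without overlap. Fos alone did not overlap between populations either, and Dusp1 differed little (log2 fold change 0.22). The ratio therefore largely carries the Fos difference again. How many of all genes are apart in their ratio to Fos was not counted. The log2 ratio of Egr1 to Fos averaged -0.66 ± 0.26 in top and -0.63 ± 0.29 in bottom (SD, n = 4), a difference of 0.03. The ratio of Klf6 to Fos averaged -3.23 ± 0.28 and -2.65 ± 0.54, with bottom 2 at -3.41 inside the top range. Within the Jun family, the log2 ratio of Jund to Jun averaged -3.01 ± 0.47 in top and -3.42 ± 0.34 in bottom, and that of Junb to Jun -2.39 ± 0.33 and -2.62 ± 0.34, with overlap in both. These ratios were picked after the values were seen and are given without a test.

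Per kilobase of the longest protein-coding transcript in GENCODE M21, Fos had the highest level in both populations, at 726 ± 139 CPM per kb in top and 1258 ± 223 in bottom (SD, n = 4). In bottom it was followed by Egr1 at 387 ± 91.2, Dusp1 at 290 ± 42.0, Fosb at 242 ± 84.1 and Jun at 171 ± 51.0 CPM per kb. Klf6 came next at 103 ± 32.7, then Ier2 at 87.6 ± 17.9, Klf4 at 49.3 ± 14.7, Junb at 48.2 ± 9.42 and Jund at 32.8 ± 17.0 CPM per kb. Fos stood apart from Egr1 by far more than either SD, while Egr1 and Dusp1, Dusp1 and Fosb, Fosb and Jun, Jun and Klf6, Klf6 and Ier2, and Klf4, Junb and Jund lay within about their summed SD of each other. In top Dusp1 (259 ± 97.2) preceded Egr1 (224 ± 79.6), within their spread. The annotation behind the deposited counts is not given, so these lengths are approximate.

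Beyond the 10 genes, 39 of 43 other immediate early genes could be tested, and 36 of these lay on the positive side, at a median log2 fold change of 0.86. The list was written from general knowledge of the response, with earlier results of these data known, so its tallies are a description. In edgeR 1 of the 39 was higher in bottom and 0 were lower, against 0.282% and 0.162% of all genes. At an unadjusted p under 0.05, 12 were higher and 0 lower, against 5.62% and 4.63% of all genes. The positive tally and the median were lower in batch 2 alone (30 of 40, 0.42), and stood at 35 of 39 and 1.02 in batch 1 alone. Without bottom 1 and bottom 2 they were 29 of 40 and 0.41, in a fit whose difference rests on batch 2 again. The called gene was Zfp36l1, an RNA-binding protein that speeds the decay of mRNAs with AU-rich elements, at 0.575, 1.38, 0 and 0 CPM in top and 65.2, 23.3, 58.7 and 92.0 CPM in bottom. It had 15.0 counts over the 4 top libraries and 2396 over the 4 bottom libraries (log2 fold change 7.24, SE 1.22, adjusted p = 0.0462 in edgeR). The call held without bottom 2 and was lost without any other single library (adjusted p in edgeR 0.0398 to 0.167 over the 8 omissions). Zfp36, a relative with the same role and one chosen after its values were seen, stood at 119, 91.9, 191 and 266 CPM in top and 367, 366, 444 and 341 CPM in bottom (log2 fold change 1.29, SE 0.29, adjusted p = 0.115 in edgeR).

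Cyr61, Sgk1 and Fosl2, from the same list, had the next largest log2 fold changes among genes with a mean of at least 5 CPM. The level of Cyr61, a matricellular protein that is a target of serum response factor and of YAP, was 4.603, 0.251, 18.7 and 6.19 CPM in top and 36.3, 139, 181 and 163 CPM in bottom (log2 fold change 4.46, SE 0.86, adjusted p = 0.0692 in edgeR). Every bottom library lay above every top library for Cyr61. Sgk1, a kinase induced by serum and glucocorticoids, overlapped between populations, at 0.371 to 17.1 CPM in top and 3.79 to 87.3 CPM in bottom (log2 fold change 2.60, adjusted p = 0.282 in edgeR). Fosl2, the Fra-2 subunit of AP-1, stood at 8.34, 3.89, 49.3 and 51.1 CPM in top and 86.7, 21.3, 61.8 and 94.3 CPM in bottom (log2 fold change 1.87, SE 0.70, adjusted p = 0.373 in edgeR). Btg1, an antiproliferative gene chosen after its values were seen, had a log2 fold change of -0.30 (SE 0.26, adjusted p = 0.795 in edgeR), and Nr4a1, a nuclear receptor of the early response chosen in the same way, overlapped widely at 32.9 to 137 CPM in top and 47.2 to 198 CPM in bottom.

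**Figure D4:**
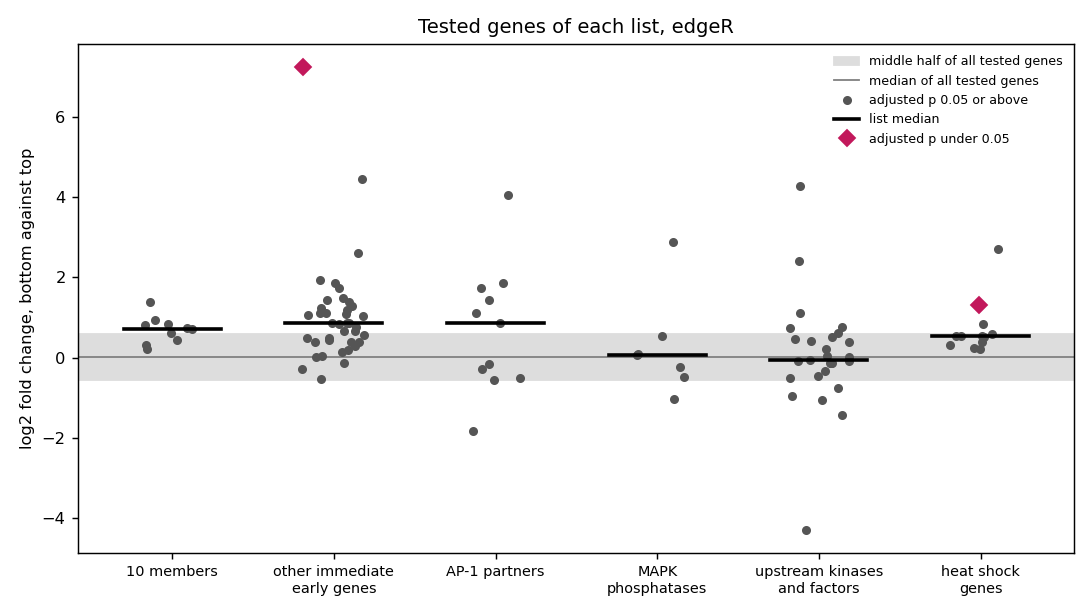
Log2 fold change of bottom against top (vertical axis) for every tested gene of 6 lists; black bars are list medians, the grey band spans the middle 50% of all tested genes, and diamonds are genes with an edgeR adjusted p under 0.05 (Zfp36l1 and Dnajb1). The 10 genes lie between 0.22 and 1.37 with a median of 0.72, and the upstream kinases and factors centre on -0.07, a sign that turns under other scalings.

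Of the partners of AP-1 (Atf, Batf, Maf and Fos-like genes) 6 of 11 tested genes had positive values, where 50.1% of all genes did. None was called in edgeR, and 4 were higher at an unadjusted p under 0.05, against 5.62% of all genes. The median log2 fold change was 0.86 over all libraries, 0.17 without bottom 1, 0.56 without bottom 2 and 0.53 without bottom 4, and was 1.30 in batch 1 alone and 0.38 in batch 2 alone. Atf3, which pairs with Jun proteins and responds to stress, stood at 214, 235, 712 and 571 CPM in top and at 866, 785, 806 and 832 CPM in bottom. All bottom libraries lay within a narrow range above the highest top library (log2 fold change 1.12, SE 0.33, n = 4, adjusted p = 0.242 in edgeR). Maff, a small Maf protein, had a log2 fold change of 1.73 (SE 0.56, adjusted p = 0.293 in edgeR), and Maf one of 4.06 (SE 1.15, adjusted p = 0.222 in edgeR), at 377 CPM in bottom 1 and 2.00 to 48.0 CPM in the other bottom libraries. The 14 genes of this list share Fosl1, Fosl2, Atf3, Maff and Mafk with the list of other immediate early genes.

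Next came the genes that carry the signal to the early genes. Of 27 tested kinases and factors upstream (MAP kinases, ribosomal S6 kinases, ETS factors, Srf, Creb1 and their co-factors) 13 had positive values, the median was -0.07, and edgeR called none. That median turned to 0.00 with RLE scaling and to 0.26 with library totals in place of TMM, where the median of all genes was 0.34. At an unadjusted p under 0.05 it held 3 higher and 1 lower, where 5.62% and 4.63% of all genes were. Leaving out 1 library moved the median to between -0.13 and 0.28, the latter without top 4. Srf, the serum response factor that binds CArG boxes, stood at 15.1, 18.7, 19.5 and 45.1 CPM in top and at 56.9, 27.0, 45.3 and 74.9 CPM in bottom (log2 fold change 1.10, SE 0.46, adjusted p = 0.439 in edgeR). Rps6ka5, the kinase MSK1 that phosphorylates CREB and histone H3, had a log2 fold change of -4.29 (SE 1.58, adjusted p = 0.352 in edgeR). It stood at 5.18, 4.27, 26.1 and 25.7 CPM in top and at 0.109, 0, 6.11 and 0 CPM in bottom. The 4 bottom libraries held 59.0 counts of Rps6ka5 in all. Map2k3, a kinase that activates p38, had a log2 fold change of 2.41 (SE 1.05, adjusted p = 0.466 in edgeR). Its populations overlapped, at 3.60 to 12.3 CPM in top and 62.9, 137, 0.632 and 20.8 CPM in bottom. Elk3, an ETS partner of Srf, had a log2 fold change of -1.43 (SE 0.97, adjusted p = 0.704 in edgeR).

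Of the other MAPK phosphatases, 7 of 12 could be tested, 4 of these were positive, the median was 0.08, and edgeR called none, with 1 higher at an unadjusted p under 0.05 (5.62% of all genes). The sign of that median was not stable. It was 0.68 in batch 1 alone, -0.38 in batch 2 alone, -0.37 without top 3, 0.25 without bottom 3 and -0.03 when scaled without the hormone genes. That 1 was Dusp6, the phosphatase specific for ERK, at 2.16, 0.879, 8.66 and 7.62 CPM in top and 28.6, 12.2, 25.9 and 41.2 CPM in bottom. Its populations did not overlap (log2 fold change 2.87, SE 0.74, n = 4, adjusted p = 0.177 in edgeR). Dusp8 had a log2 fold change of 0.53, Dusp10 one of -0.47 and Dusp7 one of -1.03, each with overlap between populations (adjusted p in edgeR 0.789 to 0.885). Dusp10 and Dusp8 act mainly on JNK and p38, and Dusp7 acts on ERK.

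Heat shock genes, which are often counted with the early genes in cells taken from tissue, were positive in 12 of 12, with a median of 0.53, over all libraries. In batch 1 alone 8 of 12 were positive with a median of 0.12, in batch 2 alone 12 of 12 with 0.84, and without bottom 3 the values were 11 of 12 and 0.33. Of these 1 rose in edgeR (0.282% of all genes), and 4 were higher at an unadjusted p under 0.05 (5.62%). Dnajb1, the Hsp40 co-chaperone of Hsp70, stood at 202, 194, 401 and 453 CPM in top and at 486, 425.5, 1279 and 1039 CPM in bottom (log2 fold change 1.32, SE 0.20, n = 4, adjusted p = 0.0356 in edgeR). The call held without bottom 1 and was lost without any other single library (adjusted p in edgeR 0.0370 to 0.149). Hspb1 had a log2 fold change of 2.71 (SE 0.63, adjusted p = 0.129 in edgeR). Its populations overlapped, at 0.753 to 12.5 CPM in top and 12.5, 11.8, 112 and 91.8 CPM in bottom. Dnajb4 had a log2 fold change of 0.85 (adjusted p = 0.402 in edgeR), and Hspa1a, an inducible Hsp70, one of 0.58 (adjusted p = 0.654 in edgeR). Summed over the 12 genes the level was 5706, 6720, 11019 and 8117 CPM in top and 7757, 8540, 16622 and 13825 CPM in bottom, so that bottom 3 and bottom 4, the libraries highest in the early genes, were highest here too. What part the heat shock state of the cells has in the early gene levels was not tested.

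Of 10007 other genes with a mean of at least 5 CPM, the 5 whose log2 CPM followed the mean standardized profile of the 10 genes most closely over the 8 libraries were Alcam (Pearson r = 0.97, Spearman rho = 0.95), Cdo1 (0.96, 0.88), Fam134b (0.95, 0.95), Dnajb1 (0.95, 0.86) and Cyp2e1 (0.94, 0.88). These were picked as the highest of many values, share their libraries and scaling with the 10 genes, and are a description without a test. Alcam, a cell adhesion molecule, stood at 76.1, 73.2, 104 and 167 CPM in top and at 108, 216, 336 and 310 CPM in bottom. Within the set, Fosb and Egr1 lay closest to the mean profile (r = 0.97 for each), and Dusp1 lay farthest (0.79), although each gene is itself part of that mean.

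Markers of other cells varied beside these levels. The 9 fibroblast and stellate cell genes, 4 of them tested, summed to 0.251 to 16.0 CPM in top, where Col1a1 and Thy1 were at 0, and to 3.28, 183, 221 and 791 CPM in bottom 1 to bottom 4. The 8 endothelial genes, 1 of them tested, summed to 0.124 to 9.21 CPM in top, where Cdh5, Kdr, Flt1, Tek and Plvap were at 0, and to 10.9, 25.1, 46.6 and 250 CPM in bottom. Acinar genes (9 of 10 tested) summed to 23.4 to 289 CPM in top and 129 to 1641 CPM in bottom, with Prss1 at 0 in both, and duct genes (8 of 9 tested) to 418 to 701 and 996 to 1561 CPM. The 12 leukocyte genes stayed at 4.90 to 14.4 CPM in top and 0.935 to 4.32 CPM in bottom. The 7 alpha cell genes, all tested, overlapped at 65185 to 138169 CPM in top and 29094 to 142098 CPM in bottom. In edgeR, 3 of 3 tested delta cell genes, 2 of 2 PP cell genes, 2 of 4 fibroblast genes and 1 of 8 duct genes were called higher (0.282% of all genes). None of the tested alpha cell, acinar, endothelial, leukocyte or intestinal genes was called. Bottom 4 was highest in fibroblast genes, endothelial genes and the summed early genes, and bottom 1 was lowest in each among bottom libraries. Other lists had another order. In bottom 1 to bottom 4, PP cell markers stood at 77084, 91991, 11342 and 22081 CPM, and delta cell markers at 52685, 57801, 33716 and 33403 CPM. Acinar genes stood at 345, 1641, 234 and 129 CPM. What part any of these cells had in the early gene levels was not tested. Bottom 1 and bottom 2 held the most intestinal transcripts, though top 1 and top 4 also held 2000 and 941 CPM. Without bottom 1 and bottom 2, 0 of the 10 genes were called and 9 of 10 stayed positive, the exception being Dusp1 at -0.09. With batch as covariate, the difference in that fit rests on the batch 2 libraries, so it nearly repeats batch 2 alone.

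**Figure D5:**
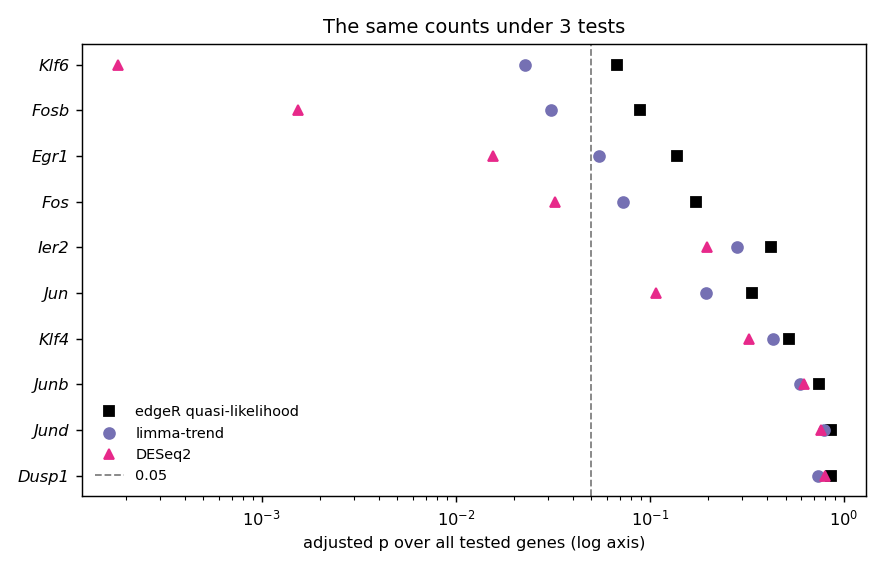
Adjusted p over all tested genes (horizontal axis, logarithmic) for each gene under the edgeR quasi-likelihood test, limma-trend and DESeq2 on the same counts; the dashed line is 0.05. Klf6 and Fosb lie left of the line in DESeq2 (0.000181 and 0.00153) and limma-trend, Egr1 and Fos in DESeq2 only, and none of the 10 in edgeR.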

How the data were processed

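RNA was profiled in 4 top and 4 bottom libraries. Per the labels' protocols, cDNA was amplified from about 1000 cells with a SMARTer kit and libraries were made with Nextera XT, a method that keeps no strand as far as the labels say. The deposited values are expected counts, which are RSEM's estimates of the reads per gene and need not be whole (34.8% were not). RSEM, edgeR and build mm9 are named per the submitters' processing notes, while aligner, annotation and versions are not given in the sources used here. Between them, the deposited series table and the tables per library differed by at most 0. Replicate numbers follow accession order and only name a library.

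Counts were rounded, genes were filtered with filterByExpr (11721 kept, with at least 98.0% of each library's counts) and scaled by TMM. The edgeR 4.0.16 quasi-likelihood test compared bottom with top with the batch as covariate, adjusted over all genes tested, in R 4.3.3. A positive log2 fold change means higher in bottom. Its SE in edgeR was derived from the test. It is the size of the fitted log2 fold change, without edgeR's prior count, divided by the square root of the F statistic. limma 3.58.1 (limma-trend, prior count 2) and DESeq2 1.42.0 were alternatives. The edgeR step was also run on simulated data with less spread than here and larger changes than those of the 10 genes. That run does not measure its power or error in these data. Since cDNA was amplified with no molecular identifiers named, reads do not count molecules. All 10 genes are named; from the other lists, every called gene and the 4 with the largest change at a mean of at least 5 CPM are named. The genes, lists and markers were chosen with earlier results of these data known.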

Additional observations from a re-analysis of the deposited data

Results flagged for a closer look

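Cyr61 in bottom 1, at 36.3 CPM, lay far below the other bottom libraries, of which the nearest stood at 139 CPM (gap of 0.837 of the range on the log2 scale, past the critical value of Dixon for 4 libraries). Rps6ka5 in bottom 3, at 6.11 CPM, lay far above the others, of which the nearest stood at 0.109 CPM (gap of 0.883 of the range). These 2 came from 72 groups of 4 libraries looked at over 36 genes, of which chance would set apart about 1 in 20. None of the 10 immediate early genes had a library so far from the rest of its population.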

How the results depend on the processing

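The count of 0 called among the 10 genes was 4 with DESeq2 and 4 with library totals in place of TMM (Fos, Fosb, Egr1 and Klf6 in both), 2 with limma-trend (Fosb and Klf6) and 1 without the low-count filter (Klf6). It stayed at 0 in the other settings, including every omission of 1 library. Library totals moved the median log2 fold change of all genes to 0.34, and relative to it the median of the 10 genes was 0.71, as in the main result (0.72). The count of 1 for the other immediate early genes was 7 with DESeq2 (Atf3, Klf2, Maff, Zfp36, Zfp36l1, Cyr61 and Sgk1). It was 3 with limma-trend and 3 with library totals (Zfp36, Zfp36l1 and Cyr61 in both), and 3 without the filter. It was 0 in batch 1 alone, 0 in batch 2 alone and 0 to 1 over the omissions of 1 library, where the 1 was Zfp36l1 without bottom 2 and Ctgf without bottom 1. The MAPK phosphatases went from 0 to 1 (Dusp6) with DESeq2. That test also called 3 AP-1 partners (Maf, Maff and Atf3), 2 upstream genes (Map2k6 and Rps6ka5) and 2 heat shock genes (Dnajb1 and Hspb1). Of these, Rps6ka5 was lower in bottom. Over all genes and in either direction, DESeq2 called 587 of 11721, limma-trend 137, edgeR with library totals 71 and the main fit 52. Without the low-count filter edgeR called 204 of 17392 tested genes, of which 136 were higher in bottom. The call of Dnajb1 was lost without the batch term, with the replicate block, in each batch alone and without bottom 1 and bottom 2. The sign of Dusp1 turned in batch 2 alone (log2 fold change -0.0752) and without bottom 1 and bottom 2 (-0.0908). The latter alternative was chosen after seeing the data, and its difference rests on the same batch 2 libraries. All other values of the 10 genes kept their sign in all 19 alternatives. A replicate block made of the batch and the number in the library title left 0 of the 10 genes and 0 of the other immediate early genes called. In that block only the libraries numbered 1 compare the populations, and libraries that share a number had deviations correlated at r = 0.09 and 0.00. With 2 such pairs and no source of the number stated, whether it pairs libraries is not known. The cause of these changes was not tested. Depth left at least 177 estimated counts for each of the 10 genes in each library, which does not bound the error of sampling molecules before amplification.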
